A study of Mus musculus with 7 samples.

Results

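The 9 mouse genes described here encode Ras GTPase-activating proteins (RasGAPs): Rasal1, Rasal2, Rasal3, Rasa1, Rasa2, Rasa3, Rasa4, Nf1 and Dab2ip. All 9 were found by symbol among the 54446 genes of the count table. RNA was sequenced from pancreatic spheroids, 3-dimensional epithelial cultures, in 4 libraries from mice that had earlier received caerulein (post-caerulein) and 3 from mice left untreated. Caerulein is a cholecystokinin analogue that causes acute pancreatitis. All mice were wild-type C57BL/6J, and all spheroids grew in the same medium, which contained epidermal growth factor, insulin, hydrocortisone, cholera toxin and pituitary extract. The labels give neither the age or sex of the mice nor the time since caerulein, and they do not say whether libraries of a group came from separate animals. Any p-value here thus reflects differences among libraries, part of which may be technical. The comparison asks how epithelium from a pancreas that has been through inflammation differs from epithelium of an untreated one.

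Ras proteins signal from growth factor receptors while bound to GTP, and RasGAPs end the signal by speeding up the hydrolysis of GTP. Exchange factors such as Sos1 do the reverse and load Ras with GTP. The genes fall into 4 branches. Rasal1, Rasa2, Rasa3 and Rasa4 form the GAP1 branch, in which the products of Rasal1 and Rasa4 are recruited to the membrane by calcium. Rasal2, Rasal3 and Dab2ip form the SynGAP branch. Rasa1 encodes p120 RasGAP, which binds phosphorylated receptors through SH2 domains, and Nf1 encodes the tumour suppressor neurofibromin.

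The family was selected on its measured values: Rasal1 was among the largest log2 changes of an earlier fit of post-caerulein against untreated libraries, and its relatives were added as a family. In the present fit with the block described below, Rasal1 ranked 129th and Rasa4 691st of 16438 tested genes by the size of the log2 change. The other 6 tested members ranked lower. Differences of these genes between the groups are therefore given as descriptions, with their standard error and no p-value. Where a count of members called is given, it stands beside the share of all genes called and is not evidence about the family.

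Total counts ran from 34783738 to 46744497 per library. The ductal keratin gene Krt19 lay between 2300 and 4460 CPM (read counts scaled to the size of the library) in the 4 post-caerulein and between 2350 and 3020 CPM in the 3 untreated libraries. The 11 ductal markers together took 14400 to 21400 CPM and 13600 to 15500 CPM in these groups, and 0 of them were called in either fit. They did not all follow the sum: Krt7 was at 1700 to 2110 CPM in post-caerulein and 2290 to 2660 CPM in untreated libraries, and Cftr at 4.66 to 4.76 CPM in post-caerulein libraries, against 39.1, 38.5 and 1.02 CPM in untreated 1 to 3. Untreated 3 and post-caerulein 4 stood apart: the log2 fold changes of the authors' deposited table were obtained to within 3.2e-08 only with these 2 libraries as a block of their own (the smaller block) against the other 5 (the larger block). No label says what this block is. The closest libraries were post-caerulein 2 and 3, with a coefficient of variation of 5.74% between them, and untreated 1 and 2, with 8.44%, while the remaining pairs had at least 21.9%. Sampling noise was exceeded in these 2 pairs as well (chi-square of 10.6 and 13.1 per gene). This does not show that the libraries of a pair came from separate animals, since technical differences can also exceed it. All 7 libraries were kept as separate samples, and results with the 2 close pairs summed are given below. In bulk RNA, fewer cells of a type and less RNA per cell cannot be told apart.

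Promoter sequences are shown for 4 members whose values are contrasted below: Rasal3, which had no reads, Rasa4 and Nf1, whose groups did not overlap, and Rasal2, which followed the block. They come from RefSeq on GRCm38.p6 and run from 250 bases before to 50 bases after the start, 5′ to 3′ on the strand of the gene. Capitals mark CpG dinucleotides.
Rasal3 (chr17:32403533-32403832, minus strand): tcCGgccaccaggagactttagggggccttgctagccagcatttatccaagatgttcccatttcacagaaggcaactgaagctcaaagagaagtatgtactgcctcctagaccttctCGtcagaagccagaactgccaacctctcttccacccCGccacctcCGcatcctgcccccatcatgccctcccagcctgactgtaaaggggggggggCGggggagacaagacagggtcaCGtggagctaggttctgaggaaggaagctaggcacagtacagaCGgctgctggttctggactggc
Rasa4 (chr5:136083666-136083965, plus strand): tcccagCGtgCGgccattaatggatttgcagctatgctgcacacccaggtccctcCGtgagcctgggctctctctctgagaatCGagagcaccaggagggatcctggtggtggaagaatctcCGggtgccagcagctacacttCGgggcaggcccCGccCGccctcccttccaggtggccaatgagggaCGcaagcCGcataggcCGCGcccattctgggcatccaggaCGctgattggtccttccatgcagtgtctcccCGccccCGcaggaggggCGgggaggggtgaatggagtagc
Nf1 (chr11:79339642-79339941, plus strand): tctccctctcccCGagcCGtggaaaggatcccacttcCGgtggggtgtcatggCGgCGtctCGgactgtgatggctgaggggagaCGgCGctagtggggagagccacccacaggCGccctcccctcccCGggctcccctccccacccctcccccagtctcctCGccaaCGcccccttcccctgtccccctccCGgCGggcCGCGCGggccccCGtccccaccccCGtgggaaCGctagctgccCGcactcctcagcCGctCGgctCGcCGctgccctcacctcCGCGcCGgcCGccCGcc
Rasal2 (chr1:157412546-157412845, minus strand): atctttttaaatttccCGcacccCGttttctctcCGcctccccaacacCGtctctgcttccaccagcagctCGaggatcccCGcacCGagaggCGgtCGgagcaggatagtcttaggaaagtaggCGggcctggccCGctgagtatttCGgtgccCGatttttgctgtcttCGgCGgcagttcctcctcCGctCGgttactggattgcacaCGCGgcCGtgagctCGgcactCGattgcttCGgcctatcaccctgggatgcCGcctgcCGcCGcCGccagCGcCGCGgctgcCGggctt
The Rasal3 window held 7 CpG, the median over the 32851 promoters of that table, and the Rasa4 window 16. Those of Nf1 and Rasal2 held 30 and 31, more than in 88.3% and 89.4% of all promoters. RefSeq promoters were matched for 8 of the 9 members, all but Rasal1. For Rasa1, Rasa2 and Rasa3 the windows held 30, 32 and 26 CpG, and the 4 listed starts of Dab2ip held 12, 29, 21 and 5. The GC box GGGCGG was present on either strand in the Rasal3, Rasa4 and Nf1 windows but not in that of Rasal2, against 35.7% of all promoters. The ETS core CCGGAAG, found in 8.86% of all promoters, was present in Nf1 and Rasa1 only among the 8 members. The AP-1 motif TGANTCA, where N is any base, was in none of the 12 member windows, against 7.81% of all. These matches describe letters in a window and not bound sites.

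Rasal1 encodes a RasGAP of the calcium-responsive kind (chromosome 5, 120648822 to 120679597, plus strand, GRCm38). It stood at 50.5, 16.6, 23.2 and 5.78 CPM in post-caerulein 1 to 4, against 5.32, 4.55 and 0.8 CPM in untreated 1 to 3. Every post-caerulein library was above every untreated one, but post-caerulein 4, at 5.78 CPM, was barely above untreated 1, at 5.32 CPM. The means were 24.0 ± 19.1 CPM (SD, n = 4) in post-caerulein and 3.56 ± 2.42 CPM (SD, n = 3) in untreated libraries. Behind these values were 1803, 597, 1101 and 275 reads in post-caerulein libraries, against 215, 216 and 36 reads in untreated ones. The highest library was 63.1-fold above the lowest, and the spread of Rasal1 over the 7 libraries (SD of 1.90 in log2(CPM + 0.1)) exceeded that of 99.3% of the 16438 genes tested. This spread includes the group difference for which Rasal1 was chosen, so its rank is partly fixed by that choice.

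The fitted log2 change of Rasal1, post-caerulein over untreated, was 2.75 ± 0.86 (SE) with group as the only term and 2.67 ± 0.41 with the block as a further term. The difference was positive inside each block, which the choice of Rasal1 for this change favours. In the smaller block it rests on post-caerulein 4 and untreated 3 alone, so likeness of size cannot be judged. On the log2(CPM + 0.1) scale the difference was 2.43 between post-caerulein 1 to 3 and untreated 1 and 2, and 2.71 between post-caerulein 4 and untreated 3. The block moved Rasal1 the other way by nearly as much: post-caerulein 4 differed from the mean of the other post-caerulein libraries by -2.20, and untreated 3 from that of the other untreated ones by -2.48. So the 2 libraries of the smaller block were the lowest of their groups.

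**Figure D1:**
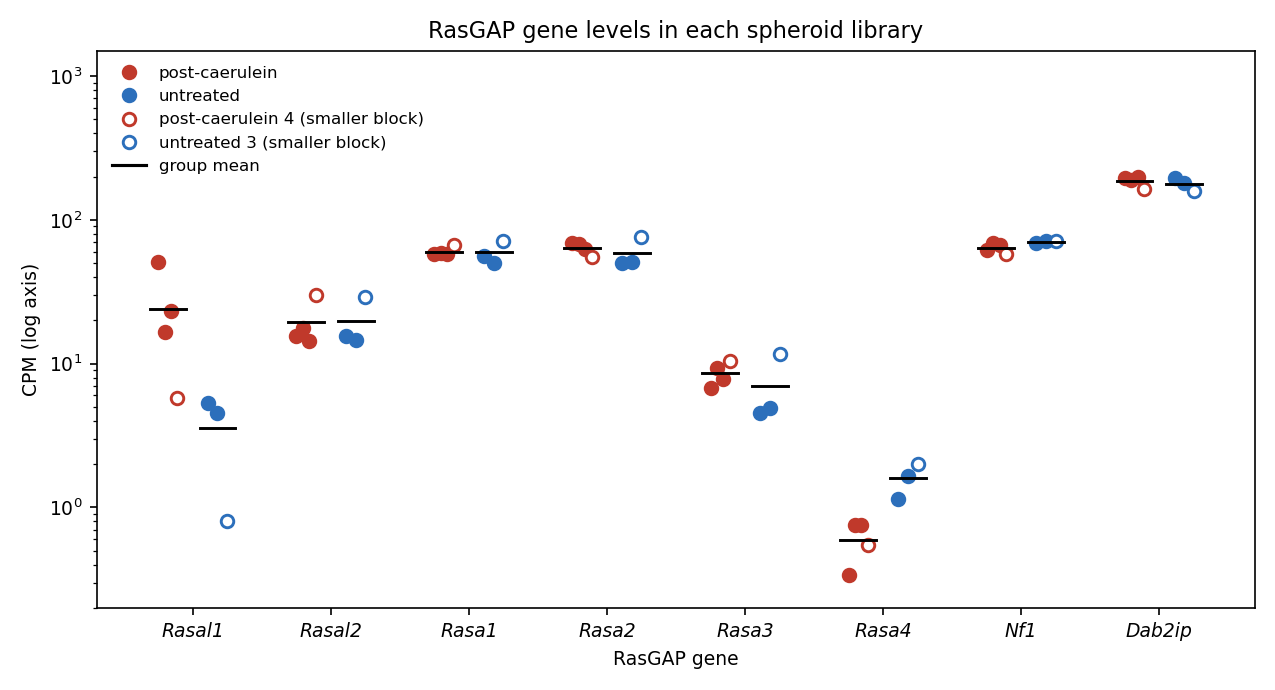
CPM (log axis) of the 8 RasGAP genes with reads, one point per library, post-caerulein to the left of untreated, with open points for the smaller block and bars for group means. Rasal1 is higher in all 4 post-caerulein libraries (5.78 to 50.5 CPM) than in the untreated ones (0.8 to 5.32 CPM), Rasa4 and Nf1 are lower in all 4, and the other genes overlap.

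Rasa4, also called CAPRI, encodes the other calcium-responsive RasGAP (chromosome 5, 136083916 to 136111860, plus strand). It stood at 0.336, 0.749, 0.758 and 0.546 CPM in post-caerulein 1 to 4, against 1.14, 1.66 and 2 CPM in untreated 1 to 3. The groups did not overlap, in the direction opposite to Rasal1. The means were 0.597 ± 0.200 CPM (SD, n = 4) in post-caerulein and 1.60 ± 0.435 CPM (SD, n = 3) in untreated libraries. Counts were low, at 12, 27, 36 and 26 reads against 46, 79 and 90. The log2 change was -1.42 ± 0.36 (SE) with group only and -1.38 ± 0.35 with the block. It was negative in both blocks, at -1.12 in the larger and -1.70 in the smaller one. An antisense gene, Gm15701, shares 182 bases (6.25%) of the Rasa4 exons and had 4 reads over the 7 libraries, against 316 for Rasa4.

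The other GAP1 genes, Rasa2 and Rasa3, bind inositol phosphates, and the product of Rasa3 also acts on Rap1. Rasa2 (chromosome 9, 96539300 to 96631617, minus strand) stood at 69.2, 68, 62.7 and 55 CPM in post-caerulein libraries, against 49.8, 50.8 and 76.4 CPM in untreated ones. The groups overlapped, and the blocks ran in opposite directions. In the larger block all 3 post-caerulein libraries were above both untreated ones, a difference of 0.40 (log2), while post-caerulein 4 was below untreated 3 by a log2 difference of -0.47.

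Rasa3 (chromosome 8, 13566948 to 13677603, minus strand) showed the same split with lower values. It stood at 6.81, 9.35, 7.81 and 10.4 CPM in post-caerulein libraries, against 4.53, 4.93 and 11.6 CPM in untreated ones. The log2 difference was 0.73 in the larger block and -0.15 in the smaller one. In untreated libraries alone, untreated 3 was above the other 2 by 1.28 (log2) for Rasa3 and by 0.60 for Rasa2. Fitted log2 changes were 0.29 ± 0.36 (SE) for Rasa3 and 0.11 ± 0.17 for Rasa2 with group only, and 0.48 ± 0.23 and 0.15 ± 0.17 with the block. Whether the group difference itself depended on the block was not tested.

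In the SynGAP branch, Dab2ip encodes a scaffold that restrains Ras and tumour necrosis factor signalling (chromosome 2, 35558266 to 35730994, plus strand). It was the most abundant member, at 195, 189, 200 and 163 CPM in post-caerulein 1 to 4, against 195, 180 and 159 CPM in untreated 1 to 3. The groups overlapped almost entirely, and the lowest library of each group was that of the smaller block. The log2 change was 0.07 ± 0.12 (SE) with group only and 0.05 ± 0.08 with the block.

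Rasal2 (chromosome 1, 157135182 to 157412595, minus strand) followed the block and not the group. It stood at 15.5, 17.7, 14.4 and 29.8 CPM in post-caerulein 1 to 4, against 15.6, 14.6 and 29.1 CPM in untreated 1 to 3. The 2 libraries of the smaller block were thus at about the same level whichever group they belonged to, above the other 5, by 0.91 (log2) among post-caerulein and 0.94 among untreated libraries. The log2 change between groups was -0.03 ± 0.34 (SE) with group only and 0.06 ± 0.11 with the block. The antisense gene 2810025M15Rik shares 2.43% of the Rasal2 exons and had 1499 reads, against 5928 for Rasal2. Reads of this stretch could belong to either gene, since no source used here gives the strand setting.

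Rasal3, a RasGAP gene known from T cells and other blood cells (chromosome 17, 32390659 to 32403583, minus strand), had 0 reads in every library. At 95% confidence such a count allows about 3 reads at most, for counting error only. That is 0.063 to 0.0841 CPM in post-caerulein and 0.0632 to 0.0742 CPM in untreated libraries. The highest level of Ptprc, which encodes the leukocyte antigen CD45, was 0.105 CPM in post-caerulein and 0.0247 CPM in untreated libraries. Of the 10 leukocyte markers, 2 had enough reads to be tested. The summed level of all 10 was 12.9 to 36.4 CPM in post-caerulein and 21.4 to 98.6 CPM in untreated libraries. Of this Cd68, a lysosomal protein gene of macrophages, gave 11.7 to 35 CPM and 20.5 to 97.9 CPM. Csf1r, the other tested marker, averaged 1.02 CPM in post-caerulein and 0.573 CPM in untreated libraries, and every remaining marker averaged less.

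Rasa1 (chromosome 13, 85214780 to 85289029, minus strand) stood at 57.4, 59, 57.6 and 66.3 CPM in post-caerulein 1 to 4, against 55.9, 50.4 and 71.6 CPM in untreated 1 to 3. The groups overlapped, and the library of the smaller block was the highest in each, by 0.19 (log2) among post-caerulein and 0.43 among untreated libraries. The log2 change was 0.02 ± 0.14 (SE) with group only and 0.06 ± 0.09 with the block.

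Nf1 (chromosome 11, 79339792 to 79581612, plus strand) stood at 61.5, 68.7, 66.5 and 57.8 CPM in post-caerulein 1 to 4, against 68.8, 70.9 and 71.6 CPM in untreated 1 to 3. The groups did not overlap, but post-caerulein 2, at 68.7 CPM, reached almost the level of untreated 1. The log2 change was small, at -0.15 ± 0.10 (SE) with group only and -0.16 ± 0.09 with the block. The spread of Nf1 over the 7 libraries (SD of 0.11 in log2(CPM + 0.1)) was below that of most genes, with 7.28% of the tested genes varying less.

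**Figure D2:**
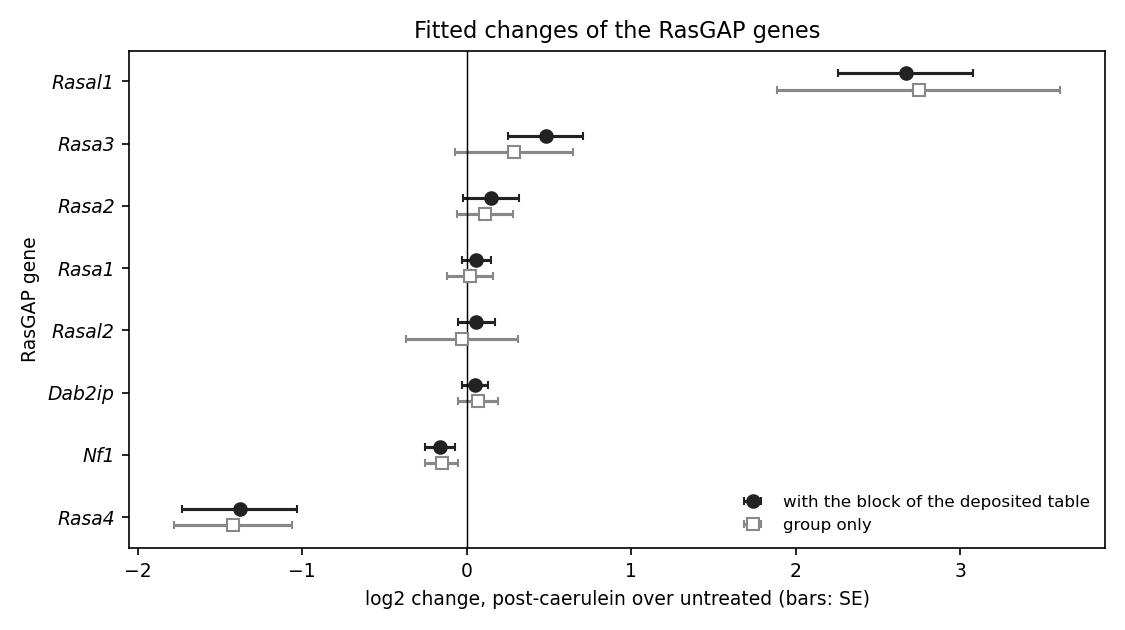
Fitted log2 change of each RasGAP gene, post-caerulein over untreated, with bars for SE, from the fit with the block (filled) and with group only (open). Rasal1 (2.67 and 2.75) and Rasa4 (-1.38 and -1.42) lie away from 0 in opposite directions, and the other 6 lie between -0.16 and 0.48.

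Counted over the family, 8 of the 9 genes had enough reads to be tested. With group as the only term, the quasi-likelihood test of edgeR (p adjusted by Benjamini and Hochberg over all genes, threshold 0.05) called 0 of the 8. It called 0 of all 16438 genes (0%), with 1561 (9.5%) at an unadjusted p under 0.05. DESeq2 called 509 genes (3.12%), Rasal1 and Rasa4 among them. With the block the quasi-likelihood test called 1 member, Rasal1, where 251 genes (1.53%) were called over all. Of the 8 members, 1 lay wholly above and 2 wholly below in post-caerulein libraries, where 4.67% and 4.64% of all tested genes did so (9.31% in either direction). The log2 change was positive for 6 of the 8 with the block and 5 of the 8 with group only, against 49.4% and 47.1% of all tested genes. The authors' deposited table lists 8 members, of which 2 had a false discovery rate under 0.05, Rasal1 with a log2 fold change of 2.68 and Rasa4 with one of -1.37, against 7.88% of its 12983 genes. Because this contrast led to the choice of the family, nothing is read from these counts. The median log2 change of the 8 members was 0.06 with the block and 0.04 with group only, against 0 and -0.02 over all tested genes. The member called with the block was not called without untreated 1, without untreated 2, without post-caerulein 3, without a filter on low counts or with the counts of the close pairs summed. Without untreated 3 or without post-caerulein 4, when only the larger block bears on the group difference, 3 members were called (Rasal1, Rasa2 and Rasa3), where 13.5% and 13% of all tested genes were.

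Levels of the genes relative to each other were not used to choose them, but those of Rasal1 in post-caerulein libraries are tied to its choice. The levels were compared per exon length, as CPM per kilobase of exon (RPKM). Dab2ip was highest at 24.1 ± 2.16 RPKM (SD, n = 7 libraries), followed by Rasa1 at 13.1 ± 1.54, Rasa2 at 10.6 ± 1.75 and Nf1 at 5.57 ± 0.427 RPKM. Rasal1 averaged 4.56 ± 5.22 RPKM, Rasal2 1.94 ± 0.683, Rasa3 1.80 ± 0.610 and Rasa4 0.353 ± 0.209 RPKM. The median over all tested genes was 5.16 RPKM, so the means of Dab2ip, Rasa1, Rasa2 and Nf1 lay above it. The post-caerulein mean of Rasal1 was above it, at 7.19 ± 5.71 RPKM (SD, n = 4), but post-caerulein 2 and 4 were at 4.96 and 1.73 RPKM. In every untreated library Rasal1 was below the median, at 1.07 ± 0.724 RPKM (SD, n = 3) on average. Rasal2, Rasa3 and Rasa4 stayed below it in all 7 libraries.

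The order was tested between neighbours by a two-sided exact sign-flip permutation test over the 7 libraries, whose smallest p is 0.0156. Neighbours were set by the same values, and the test treats the close pairs of libraries as separate. It was not run with these pairs summed, since no step could then pass. Leaving out 1 library already gave a smallest adjusted p of 0.05 in this sign-flip test, and summing leaves fewer libraries. Dab2ip exceeded Rasa1 by 0.88 ± 0.28 (log2 RPKM, SD), Rasa1 exceeded Rasa2 by 0.31 ± 0.20 and Rasa2 exceeded Nf1 by 0.92 ± 0.26, each in 7 of 7 libraries (exact p = 0.0156, adjusted over 8 pairs 0.025). Rasa3 exceeded Rasa4 by 2.46 ± 1.06 in 7 of 7 libraries, with the same exact p. Rasa4 also exceeded Rasal3 in every library, which the absence of Rasal3 reads fixes. So 4 steps between genes with reads passed, with all 7 libraries taken as separate. The middle of the order was not resolved. Nf1 exceeded Rasal1 by 1.20 ± 1.99 in 5 of 7 libraries (exact permutation p = 0.172, adjusted 0.229). Rasal1 and Rasal2 differed by 0.38 ± 2.25 (0.672, adjusted 0.672) and Rasal2 and Rasa3 by 0.12 ± 0.33 (0.344, adjusted 0.393), each higher in 4 of 7. RPKM of different genes also differ by how evenly reads cover them, which replicates do not show.

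**Figure D3:**
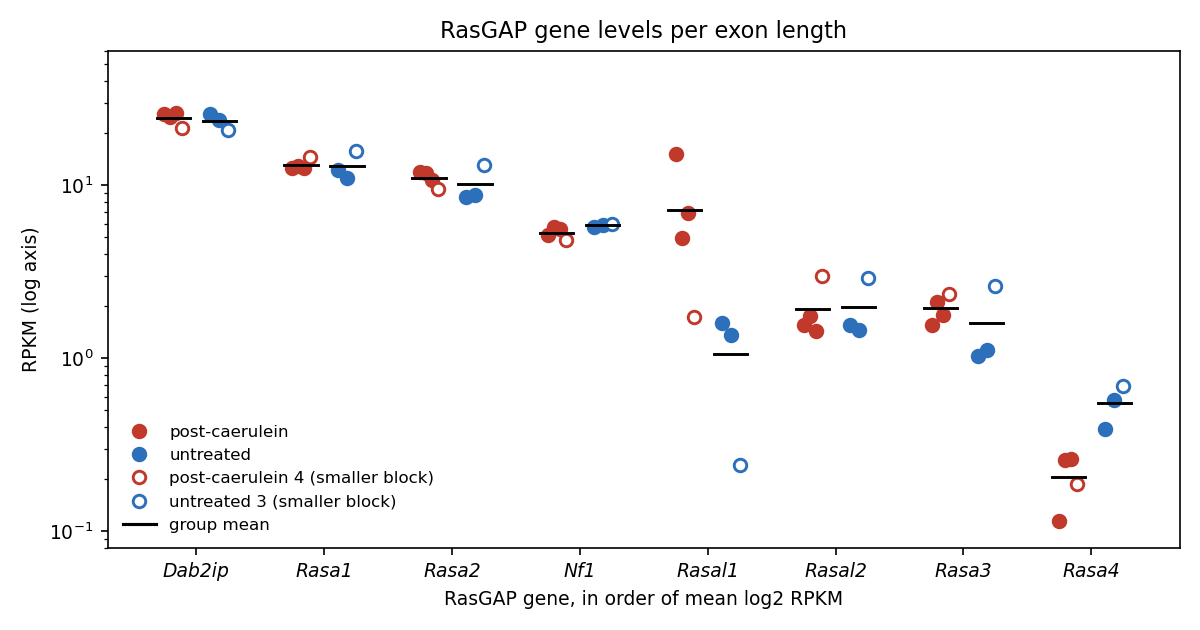
RPKM (log axis) of the 8 RasGAP genes with reads, in order of mean log2 RPKM, one point per library, post-caerulein to the left of untreated, with open points for the smaller block and bars for group means. Dab2ip, Rasa1, Rasa2 and Nf1 keep their order in all 7 libraries, while Rasal1 ranges from 0.24 to 15.1 RPKM.

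The summed RasGAP level was 73.6, 64.4, 65.7 and 57.5 RPKM in post-caerulein 1 to 4, against 56.8, 54 and 62.2 RPKM in untreated 1 to 3. The groups overlapped, with means of 65.3 ± 6.60 RPKM (SD, n = 4) and 57.7 ± 4.17 RPKM (SD, n = 3). The sum includes Rasal1, which was chosen for its change and averaged 7.19 and 1.07 RPKM in these groups. The difference of the means is thus partly fixed by that choice, and nothing is read from it. Rasal1 made up 20.6%, 7.7%, 10.6% and 3.01% of that sum in post-caerulein libraries, against 2.8%, 2.53% and 0.385% in untreated ones. Dab2ip made up 34.8% to 40.1% in post-caerulein and 33.6% to 45.2% in untreated libraries, and so was the largest part in each of the 7.

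Among the tested genes, the profile most like that of Rasal1 was that of Ambp, which encodes the precursor of alpha-1-microglobulin and bikunin. Likeness was taken as the root mean square (RMS) difference in log2(CPM + 0.1) over the 7 libraries, each gene centred on its own mean. It was 0.18 for Ambp, 0.50 for Dtx1, 0.56 for Erich5, 0.59 for Ugt2b35 and 0.62 for Rbp2, against a median of 1.78 over all tested genes. Ambp stood at 352, 108, 129 and 31.1 CPM in post-caerulein libraries, against 34.4, 32.5 and 4.42 CPM in untreated ones. It therefore differed from Rasal1 in one respect: post-caerulein 4 fell just below untreated 1 and 2. Rbp2, a cellular retinol-binding protein gene, stood at 286, 43, 101 and 32.3 CPM, against 16.1, 15.5 and 8.96 CPM. No other RasGAP gene was close to Rasal1. The nearest was Dab2ip at 1.66, little under the RMS of 1.76 of Rasal1 about its own mean.

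**Figure D4:**
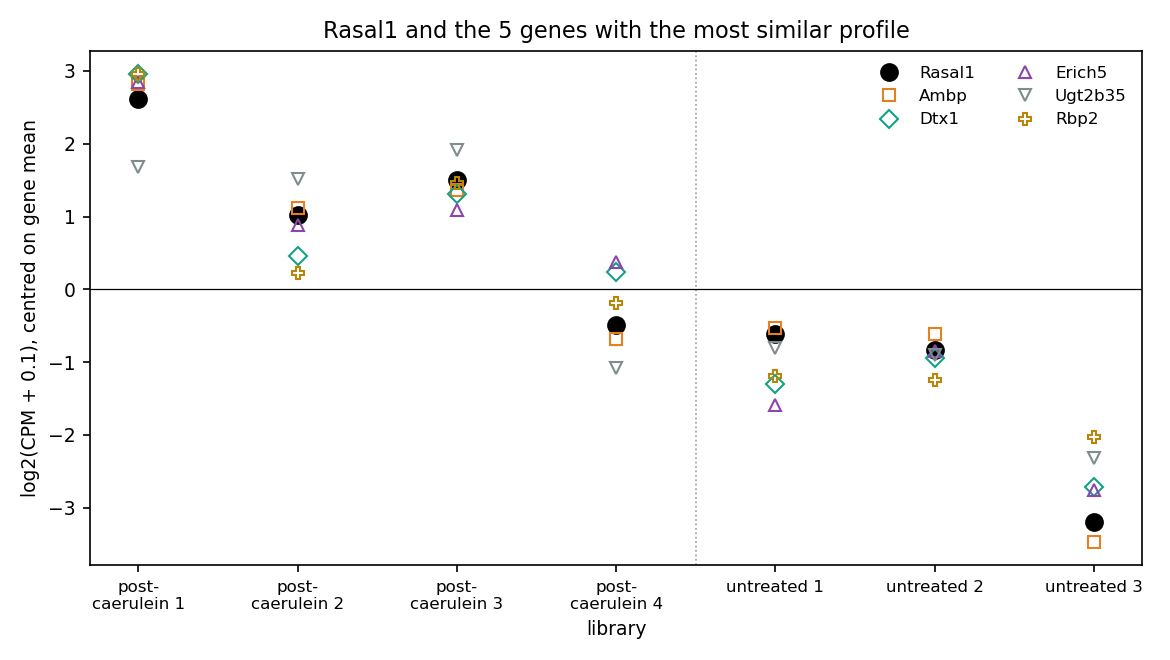
Log2(CPM + 0.1), centred on the mean of each gene, of Rasal1 and the 5 genes with the smallest RMS difference from it, in the 4 post-caerulein and the 3 untreated libraries. All 6 genes are highest or near their highest in post-caerulein 1 and lowest in untreated 3.

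Dtx1, second in this ranking, is also the next gene on the chromosome. This gene encodes a Deltex ubiquitin ligase of the Notch pathway and lies on the minus strand at 120680202 to 120711927 of chromosome 5. Its end is 605 bases from the end of Rasal1, tail to tail, and their exons do not overlap. Dtx1 was low, at 6.11, 0.998, 1.89 and 0.84 CPM in post-caerulein libraries, against 0.223, 0.316 and 0.0222 CPM in untreated ones. Its reads came to 12.1%, 6.03%, 8.17% and 14.5% of those of Rasal1 in post-caerulein libraries, against 4.19%, 6.94% and 2.78% in untreated ones. Its log2 change was 3.67 ± 0.77 (SE) in the fit that includes the block. Dtx1 was picked for its likeness to Rasal1, which was chosen for this contrast, so no p-value is given. Whether Rasal1 transcripts running past their end add to the Dtx1 count was not tested.

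The surroundings were looked at after Dtx1 had been seen. Of 30 other genes within 250000 bases of Rasal1, 20 were tested, and their median RMS difference from Rasal1 was 1.79, about that of all genes. Besides Dtx1 the nearest in profile was Tpcn1, a lysosomal two-pore channel gene, at 1.57. On the far side of Dtx1 lies the Oas cluster of interferon-induced genes, 7 of them tested. With the block 1 was called, Oas3, 73501 bases from Rasal1, with a log2 change of -1.91 ± 0.34 (SE; adjusted p = 0.0483 in edgeR). Oas3 stood at 25.2, 62.7, 40.6 and 3.09 CPM in post-caerulein libraries, against 194, 205 and 6.09 CPM in untreated ones, so the groups overlapped. This call was lost without any 1 of untreated 1 and 2 and post-caerulein 1 to 3 (0.0602 to 0.281), with no filter (0.188), with a filter of 50 counts (0.0636) and with close pairs summed (0.574). Oas2, 50736 bases from Rasal1, stood at 13.5, 30.2, 20 and 1.39 CPM in post-caerulein libraries, against 101, 125 and 0.823 CPM in untreated ones. Rasal1 and Oas2 thus shared low values in the smaller block but differed in direction between the groups of the larger block. The log2 change of Oas2 was -1.83 ± 0.54 (SE; adjusted p = 0.143 in the same edgeR fit), which did not pass.

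**Figure D5:**
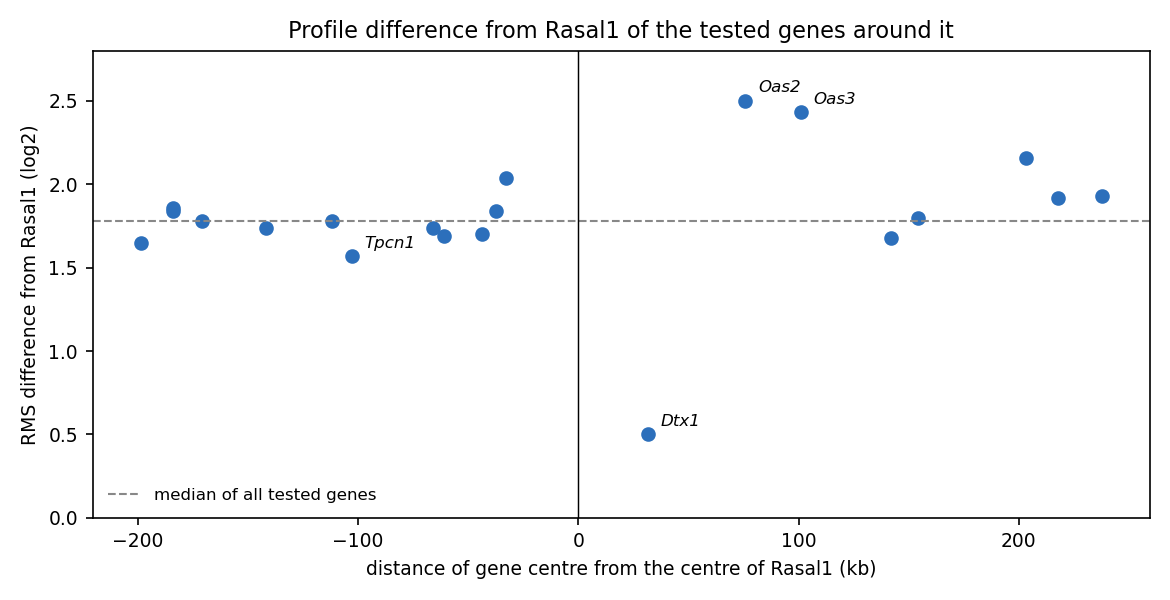
RMS difference in profile from Rasal1 (log2, over 7 libraries) of the 20 tested genes within 250000 bases, by distance of the gene centre from that of Rasal1 in kb, with the median of all tested genes as a dashed line (1.78). Dtx1 lies at 0.50 and the other 19 at 1.57 or more.

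The rest of the Ras pathway was taken from 7 lists holding 111 genes, of which 104 were tested. With group only, the quasi-likelihood test called 0 of them, and with the block 1 rose and 2 fell, where 0.651% and 0.876% of all tested genes did. Among 15 tested Ras and Rap exchange factors 1 rose, Rasgrf1, a calcium-responsive exchange factor gene that acts opposite to the RasGAPs. It stood at 39.1, 25.1, 24.2 and 3.53 CPM in post-caerulein 1 to 4, against 6.61, 10.8 and 1.76 CPM in untreated 1 to 3. The groups overlapped, since post-caerulein 4 lay below untreated 1 and 2, and as for Rasal1 the smaller block held the lowest library of each group. The log2 change of Rasgrf1 was 1.56 ± 0.28 (SE; adjusted p = 0.0497 in the edgeR fit that includes the block). That call was lost with DESeq2-type size factors in edgeR (0.0505), with a filter of 50 counts in 3 libraries (0.0628), without any 1 of untreated 1 and 2 and post-caerulein 1 to 3 (0.0673 to 0.267) and with close pairs summed (0.574). The median log2 change with the block was 0 over the 15 exchange factors.

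Among 14 Ras and Ras-related GTPase genes 0 were called, with a median of 0.21 with the block against 0 over all genes. Ralb and Rap1b, the most abundant, stood at 290 ± 28.2 and 217 ± 31.4 CPM (SD, n = 4) in post-caerulein and at 237 ± 85.6 and 179 ± 38.2 CPM (SD, n = 3) in untreated libraries. Of 16 Rap GAPs and proteins with a related domain 0 were called. Their most abundant members were Iqgap1, a scaffold gene, at 784 ± 78.4 and 821 ± 37.3 CPM, and Sipa1l3, a Rap GAP gene, at 324 ± 15.2 and 274 ± 12.2 CPM in post-caerulein and untreated libraries. Of 18 tested partners of RasGAPs and other negative regulators 0 were called, among them the stress granule gene G3bp1 at 247 ± 24.0 and 230 ± 28.1 CPM and Arhgap35, which encodes p190 RhoGAP, at 176 ± 11.2 and 199 ± 28.1 CPM in these groups. The medians of these lists were -0.04 and -0.09.

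Of 14 tested receptor adaptor genes 0 were called, with a median of -0.20. Irs2, an insulin receptor substrate gene, stood at 263 ± 30.5 CPM (SD, n = 4) in post-caerulein and 372 ± 12.2 CPM (SD, n = 3) in untreated libraries, a log2 change of -0.50 ± 0.12 that did not pass (adjusted p = 0.0826, same fit in edgeR). Of 13 RAF, MEK, ERK and scaffold genes 0 were called, and the ERK gene Mapk3 stood at 387 ± 68.5 CPM (SD, n = 4) in post-caerulein and 428 ± 52.3 CPM (SD, n = 3) in untreated libraries. Of 18 ERK target and feedback genes 2 fell, the immediate early genes Fos and Ier3. Fos stood at 66.6, 48, 48.2 and 140 CPM in post-caerulein 1 to 4, against 112, 125 and 235 CPM in untreated 1 to 3, with a log2 change of -1.02 ± 0.15 (SE; adjusted p = 0.0304 in edgeR with the block). Ier3 stood at 137, 129, 119 and 216 CPM, against 287, 236 and 281 CPM, with a log2 change of -0.84 ± 0.15 (SE; adjusted p = 0.0468 in edgeR with the block). The groups overlapped for Fos and not for Ier3. Both calls were lost without untreated 1, untreated 2, post-caerulein 2 or post-caerulein 3 and with close pairs summed, and that of Ier3 also without post-caerulein 1 and with the filter of 50 counts. The list as a whole had a median of 0.06 with the block and -0.18 with group only.

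Markers of other cell types were low beside the ductal ones. The 8 fibroblast markers summed to 3 to 7.32 CPM in post-caerulein libraries, and to 0.322, 0.169 and 21.3 CPM in untreated 1 to 3. Rasa1, Rasa2, Rasa3, Rasa4 and Nf1 had their highest CPM in untreated 3, for Nf1 at 71.6 CPM against 70.9 CPM in untreated 2. Rasal1 and Dab2ip had their lowest CPM there, and Rasal2 its highest in post-caerulein 4. The share of all genes with their highest CPM in untreated 3 was not counted, and a part of fibroblast RNA in these values was not tested. The 8 Schwann cell and neuron markers summed to 5.44 to 12.1 CPM in post-caerulein and 3.02 to 3.96 CPM in untreated libraries, of which the synaptic gene Snap25 gave 2.18 to 7.85 CPM and 0.991 to 2.82 CPM. The 9 acinar markers came to 1.75 to 11.8 CPM and 0.643 to 1.25 CPM, the 8 islet markers to 0.546 to 4.88 CPM and 0.0247 to 0.422 CPM, and the 7 endothelial markers to 0.448 to 1.43 CPM and 1.36 to 2.82 CPM in the same groups. Amy2a5 of the acinar and Ppy of the islet list had 0 reads in all 7. In the fit with the block 1 marker of these lists was called, the chymotrypsinogen gene Ctrb1, at 4.42 CPM in post-caerulein and 0.105 CPM in untreated libraries on average (log2 change 5.59 ± 0.89, SE; adjusted p = 0.0378 in edgeR). That call was lost without untreated 1, untreated 2 or post-caerulein 3 (0.109 to 0.259), with no filter (0.0722) and with close pairs summed (0.466). Acinar, islet and neuronal sums thus did not overlap between groups and were higher in post-caerulein libraries. Of the RasGAP genes without overlap, Rasal1 was higher there, while Rasa4 and Nf1 were lower. Over all tested genes, 9.31% did not overlap in either direction. The part of these cell types in the RasGAP values was not tested.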

How the data were processed

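Polyadenylated RNA of mouse pancreatic spheroids was sequenced in 4 post-caerulein and 3 untreated libraries, grouped by the sample titles. The authors deposited raw read counts per gene, made with featureCounts 0.6.1 on GRCm38, per the submitters' processing notes. The aligner, like the strand setting, is not given in the sources used here. An edgeR table that the authors deposited (edgeR 3.2.2, per the submitters' processing notes) gives log2 fold changes, average log2 CPM, a likelihood ratio score and p-values with false discovery rates, per the file headers.

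Genes passing filterByExpr (minimum count 10, minimum total 15) were normalised by TMM and tested two-sided with edgeR 4.0.16 (robust quasi-likelihood, R 4.3.3), with Benjamini-Hochberg adjustment over 16438 genes and 0.05 as threshold. The group was the only term. A further fit added the block found from the deposited table among 62 splits. CPM use TMM-scaled library totals, and RPKM divide CPM by exon length, with 0.01 RPKM added for the order test. Exact tests enumerate 128 sign patterns. The scripts were tested on simulated data.

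The RasGAP genes, the lists and the block were chosen with earlier results of these data known. Of 185 list entries 184 were matched, all but Spry3. Named pathway genes are the called members of each list, up to 4, or else the 2 most abundant, some of which are not reported here. The 5 genes nearest to Rasal1 exclude predicted and clone-named genes. Alternatives were RLE size factors, other filters, DESeq2 1.42.0, the replicate number as a block, the larger block alone, plain library totals and each library left out. Transcript length and summed close pairs were added after the data were seen. Figures were drawn with matplotlib 3.10.9.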

Additional observations from a re-analysis of the deposited data

How the results depend on the processing

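The log2 change of Rasal1 stayed between 2.11 and 3.26 with group only and between 2.27 and 2.88 with the block, and that of Rasa4 between -1.62 and -1.15 and between -1.60 and -1.16, over the alternatives tried. Of the genes named as called with the block, Rasal1, Rasgrf1, Fos, Ier3, Ctrb1 and Oas3, none changed direction in that fit under these alternatives, and the other called genes were not followed. The count of genes called depended on the setting. With group only it was 0, and it became 23 without a filter, 509 with DESeq2, 2247 in the larger block alone and 0 to 1149 when each library was left out (1149 without untreated 3, 57 without post-caerulein 4). With the block it was 251, and it became 602 without a filter, 138 with a filter of 50 counts in 3 libraries, 1389 with DESeq2, 0 with close pairs summed and 0 to 2267 when each library was left out. It was 0 without untreated 1 or 2, 3, 29 and 131 without post-caerulein 3, 2 and 1, and 2267 and 2086 without untreated 3 and post-caerulein 4. The causes were not tested. DESeq2 called Rasal1 and Rasa4 in both fits, among 509 of 16338 genes with group only and 1389 of 15163 with the block. With the block and no filter no member was called.

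With the replicate number as a block 0 genes were called, as without it. Deviations of same-numbered libraries correlated at 0.38, 0.15 and -0.22, and 1 of 3 untreated libraries correlated best with its own number, so the numbers were not taken as pairs. The 4 steps that passed between genes with reads, and that of Rasa4 over Rasal3 with no reads, also passed with plain library totals. The same held with the longest coding transcript as length. When a library was left out, 0 to 0 steps passed, because 6 libraries give a p of 0.0312 at best and 0.05 after adjustment. Each of these steps then held in every remaining library. Coding length from RefSeq proteins was not run. Depth limits Rasa4, at 12 to 90 reads per library, and Dtx1, at 1 to 218.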
